A study of Malus domestica with 18 samples.

Results

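ClpB1 and ClpB4 were the 2 genes of the Clp/Hsp100 family among the 18 target genes whose transcripts were quantified by RT-qPCR in apple embryonic axes, and they were taken by their names in the deposited tables. Seeds of Malus domestica were kept in moist sand at 33 °C for 7, 14 or 21 days, an accelerated aging that lowers seed vigour, and their embryos were isolated. In the control groups the embryos received no treatment. In the NO groups the embryos were fumigated for 3 h with nitric oxide given off by acidified nitrite (14.5 mM NaNO2 with 0.2 M HCl). All embryos, control and NO, came from aged seeds and were cultured for 48 h before the axes were taken, so no group held unaged seeds, and the control embryos were not exposed to vapour of the acid alone. There were 6 groups of 3 samples, called biological replicates in the study's methods, which gives 18 samples of pooled axes.

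ClpB proteins are hexameric ATPases that pull polypeptides out of aggregates and thread them through a central pore. They work with Hsp70 and its Hsp40 co-chaperones, which bring them to the aggregate and refold what is released, while small heat shock proteins (Hsp20) hold unfolded clients in a form that can be pulled apart. In plants the cytosolic form is known for its role in heat tolerance and for its build-up in maturing seeds, and other forms act in organelles. The apple genes were named after their closest Arabidopsis proteins. For ClpB1 that is the cytosolic ClpB1, known as the heat shock protein HSP101, and for ClpB4 it is the mitochondrial ClpB4. Location and function of the apple proteins were not measured.

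The primers are shown because they define what each assay counted and because the assays had to tell 2 relatives apart. In each of them the capitals mark the last bases at the 3′ end, from which the polymerase extends.
ClpB1 forward: gagacggttggaccaGAACA
ClpB1 reverse: ccactactctcttatgcAACCT
ClpB4 forward: gcagttctctcagacagatacATTAC
ClpB4 reverse: tcggtctacctcatcCAACT
The longest stretch that a ClpB1 primer shared with a ClpB4 primer, on either strand, was 6 bases. The primers were compared only with each other and not with the transcripts. Whether each pair left the other gene unread was therefore not tested. The primers were 20 and 22 nt long for ClpB1 and 26 and 20 nt long for ClpB4. The ClpB1 pair was assigned to 4 apple gene models (MDP0000755970, MDP0000217508, MDP0000303015 and MDP0000637620) and the ClpB4 pair to 3 (MDP0000242288, MDP0000304292 and MDP0000304623). Each value may therefore be a sum over several copies. Which of the models each pair read was not tested, and copies were not told apart. None of these models matched an entry of the RefSeq gene table used here, and no coordinates are given.

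Both transcripts were well within the measured range. A quantification cycle is the PCR cycle at which the signal passes a threshold, so transcripts present in smaller amounts are reached later. The 18 target genes ran from 19.8 to 30.8 cycles. In the control axes of seeds aged for 7 days ClpB1 was reached at 24.12, 23.88 and 23.91 cycles, and ClpB4 at 24.73, 24.83 and 24.90 cycles. In the control axes of seeds aged for 21 days ClpB1 came at 25.23, 25.10 and 25.07 cycles and ClpB4 at 26.25, 26.32 and 26.23 cycles. Both genes were thus detected later after the longest aging in every sample. Cycles of 2 different primer pairs cannot be set against each other as levels, because the PCR efficiencies are not given in the sources used here.

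**Figure D1:**
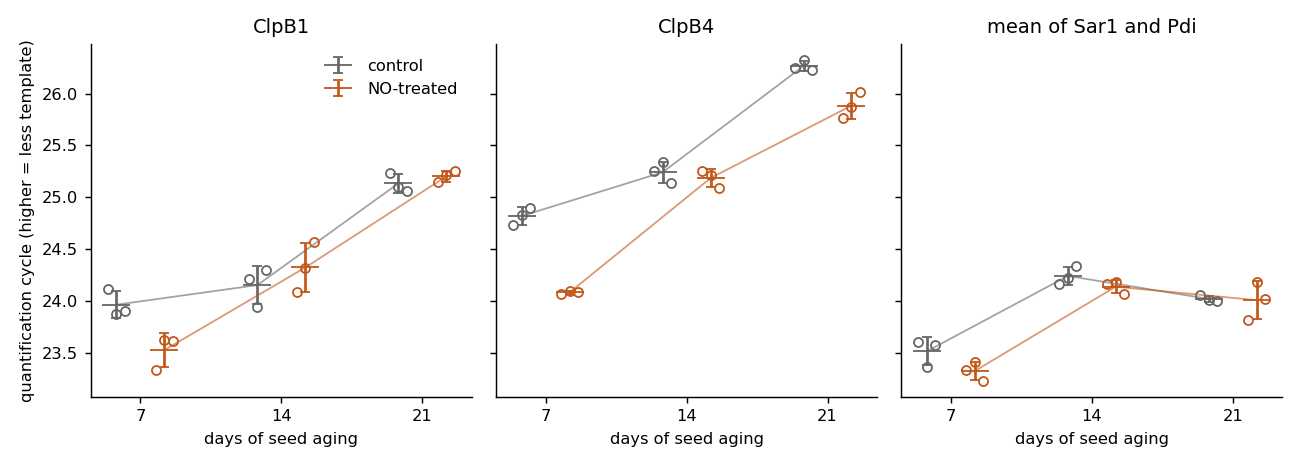
Quantification cycles (y axis, where a higher cycle stands for less transcript) of ClpB1, ClpB4 and the mean of the reference genes Sar1 and Pdi by days of seed aging (x axis), in control (grey) and NO-treated (orange) axes. Open circles are samples, and dashes with bars are the mean and SD of 3 samples. The mean cycle of both ClpB genes was highest at 21 days, while that of the reference genes was highest at 14 days.

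The reference genes moved with aging too, which bears on each comparison between days. The mean cycle of Sar1, a small GTPase of vesicle transport, and Pdi, a protein disulfide isomerase, in the control axes was 23.5 ± 0.135 (SD, n = 3) after 7 days of aging, 24.2 ± 0.0876 after 14 days and 24.0 ± 0.0328 after 21 days. The gap between these genes, Pdi minus Sar1, was 1.71 ± 0.0509 cycles (SD, n = 3) at 7 days, 1.97 ± 0.116 at 14 days and 2.35 ± 0.287 at 21 days in control axes. In NO-treated axes the gap was 1.48 ± 0.074 cycles (SD, n = 3) at 7 days, 2.23 ± 0.205 at 14 days and 2.14 ± 0.155 at 21 days. Which of the reference genes was the steadier was not tested. The panel held no markers of tissue or cell type, so the identity of the axes rests on the labels.

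NO raised ClpB4 in the axes of seeds aged for 7 days. The measure is the deposited relative expression, a ratio to the reference genes in which the untreated axes of each aging time average about 1. ClpB4 stood at 1.48, 1.53 and 1.36 in the NO-treated axes and at 1.13, 0.893 and 0.989 in the control axes. All 3 NO-treated samples lay above all 3 control samples. The change was 1.45-fold (log2 fold change 0.54, 95% confidence interval 0.30 to 0.78, adjusted p = 6.7e-04 from limma). Of the 18 target genes, 6 (33.3%) passed the threshold of an adjusted p under 0.05 at this time, 3 of them higher and 3 lower. In whole axes, more transcript per cell and more cells that carry the transcript cannot be told apart.

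ClpB1 at 7 days had relative expressions of 1.36, 1.18 and 1.05 in NO-treated axes against 0.960, 0.957 and 1.09 in control axes. The groups overlapped, with 2 of the 3 NO-treated samples above all controls. Its log2 fold change was 0.25 with a 95% confidence interval from -0.037 to 0.53 and an adjusted p of 0.154 from limma. The upper bound lies next to the estimate for ClpB4. ClpB1 was called higher when its cycles were used without a reference gene (0.44, adjusted p = 0.00456 from limma) or were centred on the 18 target genes (0.41, adjusted p = 0.00545).

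After 14 days of aging neither gene passed the test for an NO effect, at a time when 8 of the 18 genes (44.4%) did. ClpB1 was at 0.986, 0.858 and 0.667 in NO-treated axes and at 0.907, 1.14 and 0.966 in control axes, with 2 of 3 NO-treated samples below all controls. Its log2 fold change was -0.27 (95% confidence interval -0.56 to 0.011, adjusted p = 0.118 from limma). Without NO replicate 1 of 14 days it was called lower, at -0.40 with an adjusted p of 0.0219 from limma, and with Sar1 alone as the reference gene it was also called lower, at -0.40 with an adjusted p of 0.0459.

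ClpB4 at 14 days was at 0.938, 0.976 and 0.982 in NO-treated axes and at 0.941, 0.925 and 1.15 in control axes. The NO-treated samples lay within the range of the controls, and were tighter, with an SD of 0.0239 against 0.125 (n = 3 each). The log2 fold change was -0.051 (95% confidence interval -0.29 to 0.19, adjusted p = 0.707 from limma). The interval leaves out an increase of the size seen at 7 days.

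In the axes of seeds aged for 21 days NO again raised ClpB4. Relative expression was 1.23, 1.47 and 1.19 in NO-treated axes and 1.04, 0.951 and 1.01 in control axes. The groups did not overlap, and NO replicate 2 was the highest sample. The change was 1.29-fold (log2 fold change 0.37, 95% confidence interval 0.12 to 0.61, adjusted p = 0.0126 from limma), at a time when 8 of the 18 genes (44.4%) passed the threshold. The call was lost without NO replicate 2 of 21 days (log2 fold change 0.27, adjusted p = 0.0736 from limma), without control replicate 2 of 21 days (0.33, adjusted p = 0.0514) and with Pdi alone as the reference gene (0.26, adjusted p = 0.104).

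ClpB1 at 21 days was at 0.866, 1.06 and 0.927 in NO-treated axes and at 0.961, 1.01 and 1.03 in control axes. One NO-treated sample lay above all controls and 2 lay below all of them. The log2 fold change was -0.076 (95% confidence interval -0.36 to 0.21, adjusted p = 0.702 from limma), and it turned to 0.46 with an adjusted p of 0.00141 when the cycles were centred on the 18 target genes. With 3 samples against 3, the exact permutation test cannot go below p = 0.1 (two-sided), and ClpB4 reached that smallest value at 7 and at 21 days. For ClpB1 the exact permutation p was 0.2 at 7 days, 0.3 at 14 days and 0.5 at 21 days.

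**Figure D2:**
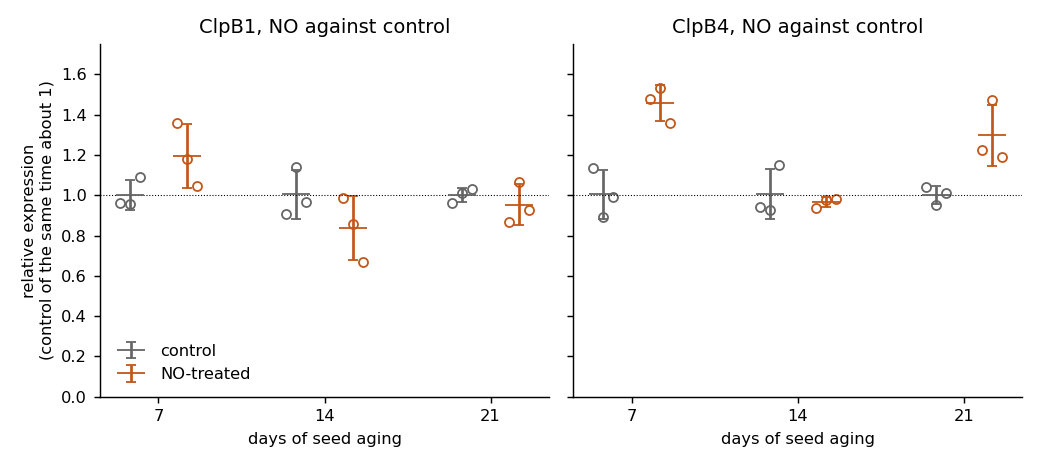
Relative expression of ClpB1 and ClpB4 (y axis, ratio to the reference genes, about 1 in the controls of each time) in control (grey) and NO-treated (orange) axes by days of seed aging (x axis), with samples as circles and the mean and SD of 3 samples as dashes with bars. ClpB4 of the NO-treated axes lies above all controls at 7 days, from 1.36 to 1.53, and at 21 days, from 1.19 to 1.47.

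The NO effect differed between aging times for both genes, tested as a contrast of the effects themselves. For ClpB4 the effect at 14 days was lower than at 7 days by 0.59 on the log2 scale (95% confidence interval -0.94 to -0.25, adjusted p = 0.00542 from limma). For ClpB1 it was lower by 0.52 (95% confidence interval -0.93 to -0.12, adjusted p = 0.0222 from limma), although its effect was not called at either time. In this contrast 11 of the 18 genes (61.1%) passed the threshold. With Pdi alone as the reference gene both were short of it, ClpB4 at -0.35 (adjusted p = 0.121) and ClpB1 at -0.27 (adjusted p = 0.235). For ClpB1 the call also ended when control replicate 1 (adjusted p = 0.0515) or NO replicate 1 (0.0748) of 7 days, or control replicate 2 (0.0728) or NO replicate 3 (0.0999) of 14 days, was left out.

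Between 14 and 21 days the NO effect on ClpB4 was higher by 0.42 on the log2 scale (95% confidence interval 0.075 to 0.76, adjusted p = 0.0389 from limma), with 9 of the 18 genes (50%) past the threshold. This call was the less firm of the 3, as it was lost with levels from the cycles (adjusted p = 0.053), with Pdi alone (0.403) and without any of 8 of the 18 samples (adjusted p from 0.0507 to 0.138). These 8 were control replicate 3 and NO replicates 1, 2 and 3 of 14 days, and control replicates 1, 2 and 3 and NO replicate 2 of 21 days. For ClpB1 the same contrast was 0.20 (95% confidence interval -0.21 to 0.60, adjusted p = 0.479 from limma).

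The effects at 21 and 7 days were not told apart for either gene in relative expression. ClpB4 differed by -0.17 on the log2 scale (95% confidence interval -0.52 to 0.17, adjusted p = 0.468 from limma) and ClpB1 by -0.32 (95% confidence interval -0.73 to 0.079, adjusted p = 0.246). In this contrast 3 of the 18 genes (16.7%) were called. Without a reference gene both were called lower, ClpB1 at -0.51 (adjusted p = 0.0192) and ClpB4 at -0.35 (adjusted p = 0.0187), and centred on the 18 target genes both turned sign, to 0.048 and 0.20, uncalled.

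Over the aging times themselves, both genes were lowest after 21 days. Because relative expression restarts at 1 in each control, levels across days were taken from the cycles against the mean of Sar1 and Pdi, with 1 doubling per cycle, and set to 1 at the geometric mean of the 7-day control. ClpB1 in control axes was at 0.960, 0.956 and 1.09 at 7 days, at 1.32, 1.66 and 1.40 at 14 days, and at 0.605, 0.638 and 0.651 at 21 days. The 3 times did not overlap.

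From 7 to 14 days ClpB1 in control axes was 1.45-fold higher (log2 fold change 0.54, 95% confidence interval 0.24 to 0.83, adjusted p = 0.00177 from limma). From 7 to 21 days it fell to 0.631 of its level (log2 fold change -0.66, adjusted p = 2.2e-04), and from 14 to 21 days to 0.435 (log2 fold change -1.20, adjusted p = 1.5e-08). Changes between aging times were common in the panel. Of the 18 genes, 14 (77.8%) passed the threshold from 7 to 14 days, 13 (72.2%) from 7 to 21 days and 16 (88.9%) from 14 to 21 days.

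ClpB4 followed the same order in control axes. It was at 1.13, 0.892 and 0.989 at 7 days, at 1.16, 1.14 and 1.42 at 14 days, and at 0.540, 0.495 and 0.527 at 21 days. At 14 days the lowest sample (1.14) lay next to the highest of 7 days (1.13), while the 3 samples of 21 days stood well below. The log2 fold change from 7 to 14 days was 0.30 (95% confidence interval 0.041 to 0.57, adjusted p = 0.0368 from limma). That from 7 to 21 days was -0.94 (adjusted p = 3.2e-07) and that from 14 to 21 days was -1.25 (adjusted p = 1.7e-09).

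The direction of the change from 7 to 14 days in control axes depended on the normalizer. Centred on the 18 target genes, which uses neither Sar1 nor Pdi, it was 0.87 for ClpB1 (adjusted p = 1e-06 from limma) and 0.64 for ClpB4 (adjusted p = 1.2e-06). The centre is the mean cycle of the 18 genes, so in each comparison it also moves with genes of large change. Here Hsp70c changed by -5.36 without a reference gene, beside a median of -0.767 over all 18. Without a reference gene the change from 7 to 14 days was -0.19 for ClpB1 (adjusted p = 0.135 from limma) and -0.42 for ClpB4 (adjusted p = 1.3e-04). The deposited control values that are scaled to the 7-day control gave nearly the same, -0.19 for ClpB1 (adjusted p = 0.142 from limma) and -0.42 for ClpB4 (adjusted p = 0.00592). Between days these values follow the same target cycles without a reference gene, so this likeness is no separate result. In those values ClpB1 was at 0.882 ± 0.107 (SD, n = 3) and ClpB4 at 0.753 ± 0.0935 at 14 days, and at 0.448 ± 0.0158 and 0.373 ± 0.0171 at 21 days. The fall from 14 to 21 days was called with each normalizer tried, in a range from -0.97 to -1.40 for ClpB1 and from -1.01 to -1.44 for ClpB4.

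With Sar1 alone the 14-day change of ClpB4 was 0.17 and not called (adjusted p = 0.344 from limma), and with Pdi alone it was 0.43 (adjusted p = 0.00547). Among the samples of both groups, the ClpB4 call needed replicates 2 and 3 of the 7-day control (log2 fold changes of 0.22 and 0.30 when each was left out) and replicate 3 of the 14-day control (0.20 when it was left out). For ClpB1 the change was 0.41 with Sar1 alone and 0.67 with Pdi alone, called in both. ClpB1 at 21 against 7 days was short of the threshold when centred on the 18 target genes (-0.20, adjusted p = 0.128).

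In NO-treated axes both genes were also lowest after 21 days, while the change from 7 to 14 days depended on the normalizer. ClpB1 in NO-treated axes was at 1.36, 1.18 and 1.04 at 7 days, at 1.44, 1.24 and 0.969 at 14 days, and at 0.545, 0.669 and 0.583 at 21 days. The samples of 7 and 14 days overlapped, with a log2 fold change of 0.017 (95% confidence interval -0.28 to 0.31, adjusted p = 0.906 from limma). This change was called higher with Pdi alone (0.39, adjusted p = 0.02) and centred on the 18 target genes (0.26, adjusted p = 0.0478), and called lower without a reference gene (-0.80, adjusted p = 6.5e-06). From 7 to 21 days the level fell to 0.503 (log2 fold change -0.99, adjusted p = 4.7e-07) and from 14 to 21 days to 0.497 (log2 fold change -1.01, adjusted p = 2.8e-07). When centred on the 18 target genes the change of ClpB1 from 7 to 21 days was -0.15 and not called (adjusted p = 0.227), and that from 14 to 21 days was -0.41 (adjusted p = 0.00331).

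ClpB4 in NO-treated axes was highest at 7 days, at 1.48, 1.54 and 1.36, then at 1.16, 1.21 and 1.22 at 14 days, and at 0.640, 0.768 and 0.620 at 21 days. The 3 times did not overlap. The log2 fold change from 7 to 14 days was -0.29 (95% confidence interval -0.55 to -0.025, adjusted p = 0.0493 from limma), which is just past the threshold. It was lost when NO replicate 1 or 2 of 7 days or any NO replicate of 14 days was left out (adjusted p from 0.0814 to 0.143). It was also lost in 7 fits that left out a sample of another group, which were control replicate 3 of 7 days, control replicates 1 and 2 of 14 days, and control replicates 1, 2 and 3 and NO replicate 3 of 21 days (adjusted p from 0.0549 to 0.0635). With Pdi alone as the reference gene the change was 0.087. The falls from 7 to 21 days (log2 fold change -1.12, adjusted p = 9.6e-09) and from 14 to 21 days (-0.83, adjusted p = 1.1e-06) were called with each normalizer, at -0.27 and -0.23 when centred on the 18 target genes. In NO-treated axes 12 of the 18 genes (66.7%) were called from 7 to 14 days, 14 (77.8%) from 7 to 21 days and 17 (94.4%) from 14 to 21 days.

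**Figure D3:**
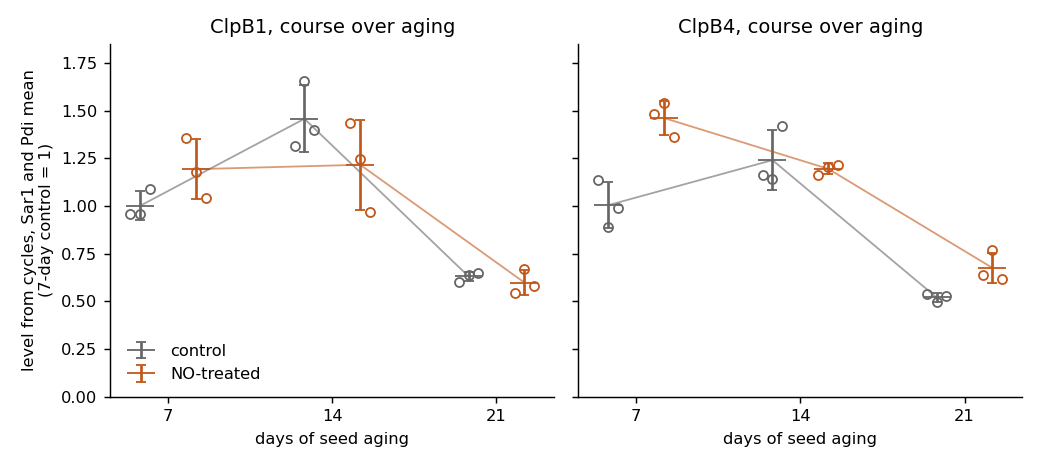
Levels of ClpB1 and ClpB4 from the cycles against the mean of Sar1 and Pdi (y axis, 7-day control = 1) by days of seed aging (x axis) in control (grey) and NO-treated (orange) axes, with samples as circles and the mean and SD of 3 samples as dashes with bars. All samples of 21 days lie below all samples of 7 and 14 days, from 0.545 to 0.669 for ClpB1 and from 0.495 to 0.768 for ClpB4.

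Ordered by mean level, the 6 groups ran differently for the 2 genes. For ClpB1 the order was control at 14 days (1.46 ± 0.176, SD, n = 3), NO at 14 days (1.22 ± 0.235), NO at 7 days (1.19 ± 0.157), control at 7 days (SD 0.0761 around the level set to 1), control at 21 days (0.631 ± 0.0241) and NO at 21 days (0.599 ± 0.0635). Neighbours overlapped throughout, except for control at 7 days against control at 21 days. For ClpB4 the order was NO at 7 days (1.46 ± 0.091), control at 14 days (1.24 ± 0.155), NO at 14 days (1.20 ± 0.0287), control at 7 days (SD 0.122), NO at 21 days (0.676 ± 0.0799) and control at 21 days (0.521 ± 0.023). The upper 3 groups of ClpB4 overlapped with their neighbours, and the samples of the other neighbours did not. The spread between replicates was an SD of 0.18 for ClpB1 and 0.13 for ClpB4 on the log2 scale, pooled over the 6 groups.

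**Figure D4:**
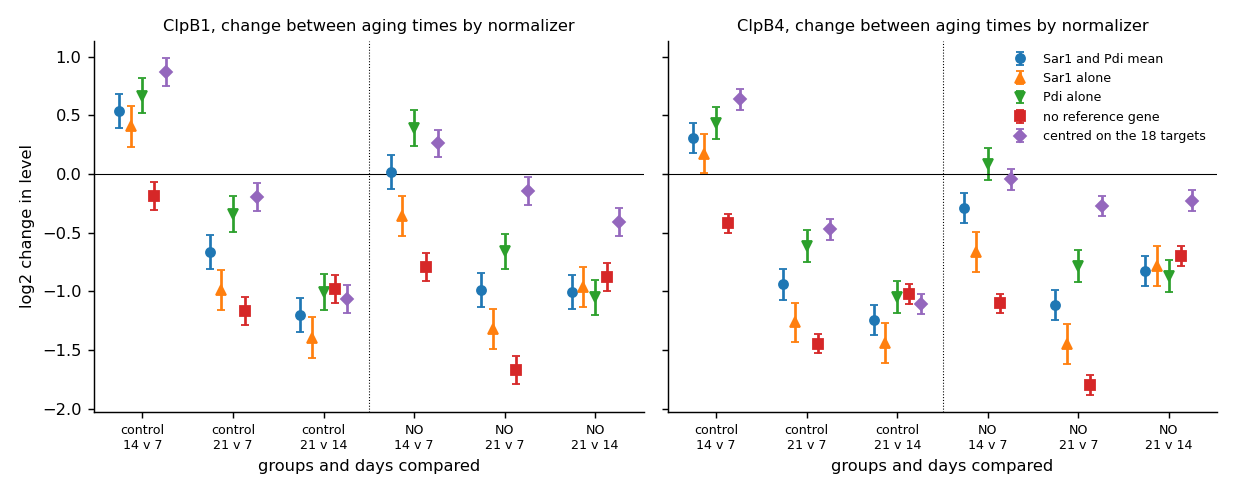
Log2 change in level (y axis) of ClpB1 and ClpB4 between aging times in control and NO-treated axes (x axis, days compared), with the mean of Sar1 and Pdi, either gene alone, no reference gene, or cycles centred on the 18 target genes. Symbols are limma estimates and bars are 1 standard error. The change from 7 to 14 days in control axes lies below 0 without a reference gene (-0.19 and -0.42) and above 0 with each other normalizer, while that from 14 to 21 days lies below 0 with all 5.

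The 2 genes were also set against each other within each sample, which needs no reference gene. The log2 ratio of ClpB4 to ClpB1, with the 7-day control mean at 0, was 0.24, -0.10 and -0.14 in control axes and 0.13, 0.38 and 0.38 in NO-treated axes at 7 days. At 14 days it was -0.18, -0.54 and 0.019 in control axes and -0.31, -0.046 and 0.33 in NO-treated axes. At 21 days it was -0.16, -0.37 and -0.31 in control axes and 0.23, 0.20 and 0.089 in NO-treated axes. The treatments overlapped at 7 and 14 days and were apart at 21 days.

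At 21 days the ratio was 1.37-fold higher with NO (log2 difference 0.45, 95% confidence interval 0.10 to 0.80, adjusted p = 0.0271 from limma, adjusted over the 17 other genes set against ClpB1). Of these 17 ratios 10 (58.8%) passed the threshold. The call was lost without control replicate 2 (adjusted p = 0.0803), control replicate 3 (0.0568), NO replicate 1 (0.0842) or NO replicate 2 (0.0723) of 21 days, and with the deposited relative expression in place of cycles (0.074).

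At the earlier times the ratio was not called. With NO it differed by 0.30 at 7 days (95% confidence interval -0.049 to 0.65, adjusted p = 0.118 from limma, with 52.9% of the ratios called) and by 0.23 at 14 days (95% confidence interval -0.12 to 0.57, adjusted p = 0.279, with 47.1% called). Over the 3 times together the NO-treated axes had a ClpB4 to ClpB1 ratio that was 1.25-fold higher (mean log2 difference 0.32, exact permutation p = 0.0055, two-sided, treatment permuted within each aging time). This held in 8 of 9 NO-treated samples when each was set against the control mean of its time. Leaving out any 1 sample gave exact permutation p-values from 0.00175 to 0.019. Both genes had been seen before this test was chosen, so the p is not that of an independent test.

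Across aging times the ratio was not called in either treatment. In control axes it differed by -0.23 from 7 to 14 days (95% confidence interval -0.58 to 0.12, adjusted p = 0.208 from limma), by -0.28 from 7 to 21 days (-0.63 to 0.071, adjusted p = 0.139) and by -0.045 from 14 to 21 days (-0.39 to 0.30, adjusted p = 0.794). Most of the other ratios to ClpB1 were called in these comparisons, 70.6%, 76.5% and 76.5% of 17 in turn. In NO-treated axes the differences were -0.31 from 7 to 14 days (-0.65 to 0.042, adjusted p = 0.118), -0.13 from 7 to 21 days (-0.47 to 0.22, adjusted p = 0.495) and 0.18 from 14 to 21 days (-0.17 to 0.53, adjusted p = 0.319), where 64.7%, 88.2% and 88.2% of the ratios were called. Without NO replicate 3 of 14 days the first of these was called (-0.47, adjusted p = 0.0144).

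**Figure D5:**
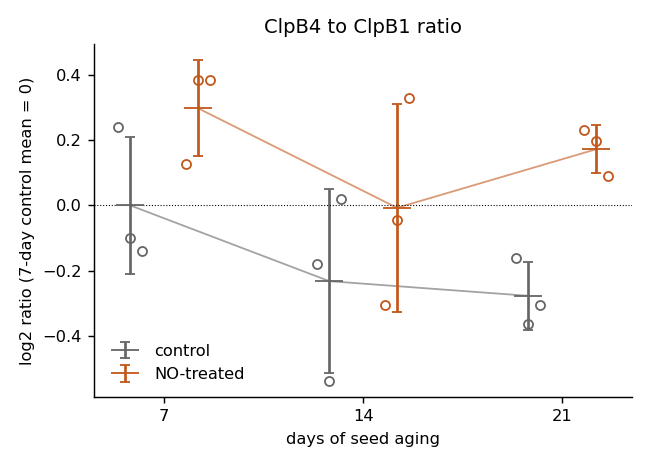
Log2 ratio of ClpB4 to ClpB1 within each sample (y axis, mean of the 7-day control = 0) by days of seed aging (x axis) in control (grey) and NO-treated (orange) axes, with samples as circles and the mean and SD of 3 samples as dashes with bars. The treatments are apart at 21 days, with NO-treated samples from 0.089 to 0.23 and controls from -0.37 to -0.16.

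The nearest profile to each ClpB gene was that of the other. Over the 6 group means, each gene centred on its own mean, the root mean square difference between ClpB1 and ClpB4 was 0.20 on the log2 scale, against a median of 0.70 over the 17 other genes for ClpB1 and 0.75 for ClpB4. Next came Lea4 (0.25) and Lea2a (0.27) for ClpB1, and Lea2a (0.34) and Lea4 (0.35) for ClpB4. Both encode late embryogenesis abundant proteins, which build up in drying seeds. The profile furthest from both was that of Hsp70c, at 1.94 from ClpB1 and 1.84 from ClpB4. This difference is not scaled, so it also grows with the size of a gene's changes. The centred Hsp70c profile ran from -2.58 (control, 14 days) to 2.76 (NO, 7 days).

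The Hsp70 and Hsp20 genes, taken as partners of ClpB by family alone, are given beside these values. No test compared them with the ClpB genes. Among them only Hsp70c was named after an Arabidopsis protein listed as mitochondrial, as ClpB4 was. Which of their proteins works with which ClpB was not measured. Of the 3 Hsp70 and 2 Hsp20 genes of the panel, NO raised Hsp70c at 7 days (log2 fold change 0.70, adjusted p = 1.6e-04 from limma). The other 4 were not called in relative expression. For 1 of these 4, Hsp70b, the deposited relative expression did not describe the gene. In each of the 18 samples it equalled the geometric mean of the deposited values of Sar1 and Pdi. In NO replicate 1 of 21 days it was 1.15, with Sar1 at 1.14 and Pdi at 1.16. From the cycles against Sar1 and Pdi, Hsp70b was higher at 7 days (0.84, adjusted p = 3.6e-06 from limma). At 14 days, when neither ClpB gene was called, NO raised Hsp70c (3.37, adjusted p = 3e-16) and Hsp20a (1.29, adjusted p = 3.3e-08). At 21 days, when ClpB4 was higher, NO lowered Hsp70a (-0.75, adjusted p = 9.5e-06), Hsp70c (-1.26, adjusted p = 3e-08) and Hsp20a (-0.49, adjusted p = 0.00609), and none of the 5 was higher. Hsp70b at 21 days was called lower from its cycles, at -2.52 (adjusted p = 3.7e-16 from limma). Its deposited relative expression gave 0.0084 (adjusted p = 0.939 from limma), a value of the reference genes and not of Hsp70b. Centred on the 18 target genes, the change of Hsp20a at 21 days was 0.026, the only one of the called partner changes with NO to turn sign with another normalizer. The median log2 fold change of the 5 genes was 0.11 at 7 days, 0.16 at 14 days and -0.49 at 21 days, beside 0.13, -0.044 and -0.062 over all 18 genes. These medians include the deposited values of Hsp70b. From the cycles the medians of the 5 were 0.10, 0.19 and -0.81, beside -0.061, -0.10 and -0.20 over all 18. From the cycles 2 of the 5 were higher at 7 days, 2 were higher at 14 days and 4 were lower at 21 days. Over all 18 genes 8, 8 and 10 were called at these times.

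Of the chaperones that fold rather than disaggregate, NO lowered Cpn60b at 7 days (-0.37, adjusted p = 0.0288 from limma), raised Cpn60a at 14 days (0.65, adjusted p = 3.4e-05) and raised Hsp90 at 21 days (0.30, adjusted p = 0.0227). From the cycles against Sar1 and Pdi the Hsp90 change was 0.079 and not called (adjusted p = 0.643), and with Pdi alone it was -0.029. The same cycles gave -0.71 for Cpn60b at 7 days (adjusted p = 2.2e-04 from limma) and 0.57 for Cpn60a at 14 days (adjusted p = 0.00144). The other 2 of these 3 genes were not called at each time. The comparisons at 1 aging time use the same control samples for each gene, so these values stand side by side and their likeness was not tested.

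Over aging in control axes, from 14 to 21 days, when both ClpB genes fell, 2 of the 5 partner genes fell as well, Hsp20a (-0.51, adjusted p = 0.0024 from limma) and Hsp20b (-0.46, adjusted p = 0.003). In the same interval 2 rose, Hsp70b (0.54, adjusted p = 4.8e-04) and Hsp70c (1.68, adjusted p = 2.8e-11), beside 88.9% of all 18 genes called. In NO-treated axes all 5 fell from 14 to 21 days, where 94.4% of all 18 genes were called, 11 of them lower. The median of the 5 was -1.91 beside -0.73 over all 18 genes. Centred on the 18 target genes the fall of Hsp20b was -0.023, against -0.62 with Sar1 and Pdi. From 7 to 14 days, 2 of the 5 rose and 2 fell in each treatment, beside 77.8% of all 18 genes called in control axes and 66.7% in NO-treated axes. From 7 to 21 days, 2 rose and 2 fell in control axes (72.2% of all genes called), and 3 fell in NO-treated axes (77.8% called). Of the risers, Hsp20b from 7 to 14 days (-0.26 in control and -0.31 in NO-treated axes) and Hsp70b from 7 to 21 days in control axes (-0.088) turned sign without a reference gene. The deposited relative expression of Hsp70b, which held values of the reference genes, differed from its cycles by a root mean square of 1.09 on the log2 scale. That of ClpB1 differed by 0.0028 and that of ClpB4 by 0.0037. Several other genes of the panel differed by 0.21 to 0.25, with Hsp90, Cpn60a, Cpn60b, Lea2a and Lea4 among them. The shares of called genes for the NO effect, and the adjustment over the 18 genes, rest on these deposited values too, those of Hsp70b included.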

How the data were processed

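RT-qPCR was run on 200 ng of total RNA per sample, with SYBR Green and 40 cycles, in 3 technical repetitions. The authors deposited the quantification cycle per gene and biological replicate, treated here as a score on which a higher number means less template. Relative expression was deposited as a ratio that the authors normalized to 2 reference genes, with the controls of each aging time averaging about 1. A further deposited ratio, for control samples only, averages about 1 at 7 days, and its use of reference genes is not stated. For ClpB1 and ClpB4 the change between days in these values followed the target cycles without a reference gene. Within a day their replicates differed as in relative expression. The Sar1 and Pdi values were the same on both scales and averaged about 1 at each time. The shift of the reference genes between days was therefore not taken out of ClpB1 and ClpB4. The deposited table of fold changes of test over control was not used. PCR efficiencies and the software that set the cycles are not given in the sources used here, and 1 doubling per cycle was assumed. RT-qPCR gives no read depth, so 3 samples per group set the precision.

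All comparisons were fitted over the 18 samples and all target genes with limma 3.58.1 in R 4.3.3, as group means without a replicate block, with Benjamini-Hochberg adjustment over the 18 genes of a contrast (17 for ratios to ClpB1) and a threshold of 0.05. The NO effect used log2 relative expression and the course over days used log2 levels from the cycles. Exact permutation tests were two-sided (scipy 1.17.1). The fit was tested on simulated data. Alternatives changed the normalizer, the scale, the variance model, the samples in the fit and the test, added the replicate number as a block, or left out each sample in turn. Named genes were the 2 ClpB genes, the reference genes, the Hsp70 and Hsp20 partners, the other chaperones where called, and the 3 genes with the nearest profile. Genes whose deposited relative expression differed from their cycles were named for that alone. The members and lists were chosen with earlier results of these data known. Primer sequences were taken from the study's supplementary table.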

Additional observations from a re-analysis of the deposited data

Results flagged for a closer look

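The NO effect differed between aging times in 3 of the 6 contrasts tested on the ClpB genes. Among all 18 genes, 61.1% were called at 14 against 7 days, 16.7% at 21 against 7 days and 50% at 21 against 14 days. That on ClpB1 was lower at 14 than at 7 days by a log2 difference of -0.52 (adjusted p = 0.0222 from limma), with an effect of 0.25 at 7 days and -0.27 at 14 days. That on ClpB4 was lower at 14 than at 7 days by -0.59 (adjusted p = 0.00542) and higher at 21 than at 14 days by 0.42 (adjusted p = 0.0389), with effects of 0.54, -0.051 and 0.37 at the 3 times. With 1 sample left out, the ClpB1 call was lost in 4 fits and the ClpB4 call at 21 against 14 days in 8.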

How the results depend on the processing

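With other settings 224 of 261 values of the 33 tests across genes kept their sign and their side of the threshold, and 554 of 594 did when 1 sample was left out. Values are log2 differences, and the cause of each move was not tested. For NO against control, ClpB1 at 7 days became called without a reference gene (0.44) and centred on the 18 targets (0.41), at 14 days with Sar1 alone (-0.40), and at 21 days it turned sign with Sar1 alone (0.028) and centred (0.46, called). ClpB4 at 14 days turned sign, uncalled, with Pdi alone (0.083), centred (0.029) and without a reference gene (0.056). At 21 days it lost its call with Pdi alone (0.26) and in the methods' t-test after adjustment (0.37), which called it unadjusted. For the difference of NO effects at 14 and 7 days, Pdi alone ended the calls of ClpB1 (-0.27) and ClpB4 (-0.35). At 21 against 14 days ClpB4 lost its call with cycles (0.42) and Pdi alone (0.18), while ClpB1 was -0.046 with Pdi alone and 0.66, called, when centred. At 21 against 7 days both were called without a reference gene (ClpB1 -0.51, ClpB4 -0.35), and centring turned them to 0.048 and 0.20, uncalled.

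In control axes, 14 against 7 days turned sign without a reference gene (ClpB1 -0.19, ClpB4 -0.42, the latter called) and in the deposited 7-day-scaled values (-0.19 and -0.42). Between days these deposited values follow the same cycles, so they are no separate alternative here. Without a reference gene the median of all 18 genes moved from -0.041 to -0.767 in this contrast, with 1 gene higher and 13 lower in place of 7 and 7. When centred the median was 0.29, with 10 higher and 5 lower. ClpB4 lost this call with Sar1 alone (0.17), with the compared groups only (0.30) and with the methods' test across days (0.30). ClpB1 at 21 against 7 days lost its call when centred, in control axes (-0.20) and in NO-treated axes (-0.15). In NO-treated axes at 14 against 7 days ClpB1 was -0.36 with Sar1 alone, 0.39 with Pdi alone (called), -0.80 without a reference gene (called) and 0.26 when centred (called). ClpB4 was 0.087 with Pdi alone and -0.046 when centred, both uncalled. The ClpB4 to ClpB1 ratio at 21 days lost its call with deposited relative expression (0.44).

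With 1 sample left out, NO against control ran from -0.40 to -0.12 for ClpB1 at 14 days, from -0.11 to 0.049 for ClpB4 at 14 days and from 0.27 to 0.43 for ClpB4 at 21 days. The difference of NO effects ran from -0.65 to -0.37 for ClpB1 at 14 against 7 days and from 0.32 to 0.48 for ClpB4 at 21 against 14 days. The change from 7 to 14 days ran from 0.20 to 0.39 for ClpB4 in control axes, from -0.11 to 0.17 for ClpB1 in NO-treated axes and from -0.34 to -0.25 for ClpB4 there. The ClpB4 to ClpB1 ratio ran from 0.41 to 0.51 for NO at 21 days, from -0.20 to 0.081 for control axes at 21 against 14 days and from -0.47 to -0.16 for NO-treated axes at 14 against 7 days.

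Samples with the same replicate number did not steadily deviate together. Correlations over the 18 genes ran from -0.325 to 0.495 in relative expression and from -0.703 to 0.295 in levels from the cycles. The numbers were therefore not taken to pair samples, though 3 samples per group cannot exclude pairing. With the number as a replicate block, ClpB4 in NO-treated axes at 14 against 7 days was -0.29 and lost its call (adjusted p = 0.0704 from limma). No other call on the 2 genes or their ratio changed, and the count of called genes for the NO effect at 21 against 7 days went from 3 to 6.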
